A study of Mus musculus with 6 samples.

Results

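The S100 genes described here are 10 members of a family of small calcium-binding proteins, measured in 3 epithelial cell types of the mouse airway. They are S100a1, S100a4, S100a6, S100a8, S100a9, S100a10, S100a11, S100a13, S100a14 and S100a16, taken by gene symbol from the authors' per-gene table. All 10 were found there among 20315 named genes, and 7 further S100 genes of the table are set beside them. RNA came from primary cells of C57BL/6 mice, with 2 arrays each of basal, ciliated and club cells and no other treatment or genotype. The cells were sorted from the surface airway epithelium by flow cytometry, and every gate required EpCAM. Basal cells also bound the lectin GSIβ4, club (secretory) cells carried SSEA1, and ciliated cells lacked GSIβ4 binding and carried CD24. The labels call the arrays biological replicates without saying which animals or pools they came from, so each p-value rests on the spread between these arrays. No age or sex is given in the labels used here.

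S100 proteins have no enzymatic activity of their own. Most act as pairs of subunits, and when calcium fills their EF-hand loops they expose a greasy surface that grips a target protein. S100A10 is the exception in that it is held permanently in the target-binding shape without calcium. Inside cells the family touches annexins, myosin and the cytoskeleton, and S100A8 with S100A9 is also released as calprotectin, an antimicrobial and inflammatory complex of neutrophils and stressed epithelia. In the airway the basal cells are progenitors on the basement membrane, club cells secrete, and ciliated cells move the mucus.

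All levels are RMA log2 values, on which 1 unit is a 2-fold difference, and all differences are in log2 units with the standard error of the limma fit. The arrays were alike in scale, with medians over all genes of 6.79 to 6.92 and lower quartiles of 5.55 to 5.69. A gap of over 1 log2 unit between the replicates was found for 613 genes in basal, 193 in club and 100 in ciliated cells. Without detection calls a dim gene cannot be called absent, and the number of arrays limits the precision. The labelled cell types carried their markers: 10 of 10 basal markers were lower in ciliated than in basal cells and 9 of 10 lower in club cells, 10 of 10 ciliated markers were higher in ciliated cells than in either other type, and 7 of 9 club markers were higher in club than in basal cells. Of the club markers 5 of 9 were lower in ciliated than in club cells, with the other 4 not called, and 3 of 9 exceeded the basal level in ciliated cells. RNA of a sorted pool cannot tell fewer cells of a type from less RNA per cell.

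Between ciliated and basal cells, 4 of the 10 S100 genes were lower in ciliated cells (S100a10, S100a14, S100a16 and S100a4) and 1 was higher (S100a1). Of all genes 17.6 percent were called in that contrast, 8.28 percent lower and 9.29 percent higher. Between club and basal cells, 2 of 10 were lower in club cells (S100a10 and S100a4) and none was higher, where 8.02 percent of all genes were called, 3.67 percent lower and 4.35 percent higher. S100a10 and S100a14 were also lower in ciliated than in club cells, 2 of 10 where 15.4 percent of all genes were called, 7.46 percent lower and 7.93 percent higher. The 3 contrasts share their arrays. Counted at an unadjusted p under 0.05 instead, 5, 5 and 3 members differed in the 3 contrasts. The median difference over the 10 genes was -0.39, -0.33 and -0.05 in the same order of contrasts, and over all genes it was -0.02, -0.06 and 0.04.

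**Figure D1:**
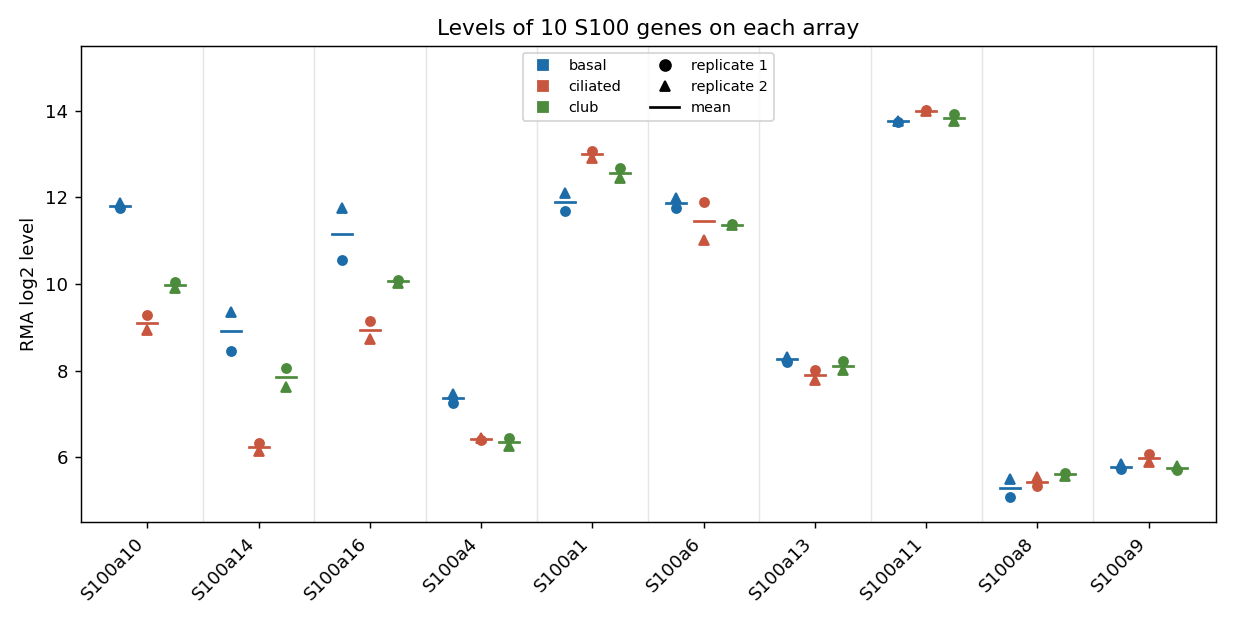
RMA log2 level (y axis) of the 10 S100 genes (x axis) on each of the 6 arrays, with circles for replicate 1, triangles for replicate 2 and a line at the mean of the cell type. The means of S100a10, S100a14 and S100a16 step down from basal through club to ciliated cells, and that of S100a1 runs the other way. Both steps were called only for S100a10. S100a8 and S100a9 lie between 5.07 and 6.07 on all 6 arrays.

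S100a10 showed the clearest separation of the annexin-binding members. Its protein, also called p11, joins annexin A2 in a complex that holds ion channels and plasminogen activator at the plasma membrane. The level was 11.75 and 11.86 in the basal arrays, 10.04 and 9.92 in the club arrays, and 9.28 and 8.93 in the ciliated arrays. The 3 cell types did not overlap, and basal, club and ciliated cells ranked in that order. With 2 arrays of each type, members that were not called could separate too, as S100a8 did between club and basal cells. The share of all genes without overlap was not computed. Ciliated cells were lower than basal cells by a factor of 6.50 (difference -2.70 ± 0.18, limma adjusted p = 4.86e-05), and club cells by a factor of 3.55 (-1.83 ± 0.18, limma adjusted p = 0.00115). The step from club to ciliated was smaller (-0.87 ± 0.18, limma adjusted p = 0.0148). That step lost its call without ciliated replicate 2 (adjusted p = 0.113), club replicate 1 (0.0979) or club replicate 2 (0.0578).

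Anxa2, the annexin of the complex, was at 11.71 and 12.16 in basal, 12.52 and 12.27 in ciliated, and 11.84 and 12.04 in club arrays, and none of its contrasts passed (limma adjusted p = 0.198, 0.992 and 0.207). Ahnak, a very large scaffold protein that docks on the complex, was at 10.41 and 9.89 in basal, 10.13 and 10.16 in club, and 9.004 and 8.73 in ciliated cells. Ahnak was thus lower in ciliated cells than in basal cells (-1.29 ± 0.21, limma adjusted p = 0.00503) and than in club cells (-1.28 ± 0.21, limma adjusted p = 0.00602), while its club minus basal difference was -0.01 ± 0.21. Plat, tissue plasminogen activator, which S100A10 binds at the cell surface, ran in another order, with means of 6.63 in basal, 10.27 in club and 8.26 in ciliated cells. Its 3 contrasts all passed, with club cells higher than basal cells by 3.64 ± 0.28 (limma adjusted p = 0.000486).

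S100a11, which binds annexin A1 and acts in membrane repair, differed little between the cell types. It was at 13.75 and 13.77 in basal, 14.01 and 13.99 in ciliated, and 13.93 and 13.76 in club cells. The ciliated arrays were the highest and the basal and club arrays overlapped. No contrast passed, and the 95% interval of ciliated minus basal ran from -0.11 to 0.60; its sign turned with other scalings, from 0.24 to -0.03 with quantile normalization applied again and to -0.18 with cyclic loess. The highest gene values of the arrays were 14.40 to 14.54, and whether signal near that ceiling was compressed was not tested. The gene's values came from probe set 10457640 on 5 arrays and from probe set 10493990 on basal replicate 2, in each case the higher of both. With probe set 10493990 on all 6 arrays, an alternative added after the data were seen, ciliated minus basal was 0.23 ± 0.16 (limma adjusted p = 0.427). A pseudogene, S100a11-ps, is annotated on chromosome 12, and whether either probe set also reads it is not known here. The S100a11 promoter is shown because it is dense in known motif letters where the gene's level was even across cell types. RefSeq places the window at chr3:93520246-93520545 on the plus strand of GRCm38.p6, from 250 bases before to 50 after the annotated start, and capitals mark 3 GC boxes (GGGCGG) and 2 AP-1 motifs (TGANTCA).
S100a11 promoter: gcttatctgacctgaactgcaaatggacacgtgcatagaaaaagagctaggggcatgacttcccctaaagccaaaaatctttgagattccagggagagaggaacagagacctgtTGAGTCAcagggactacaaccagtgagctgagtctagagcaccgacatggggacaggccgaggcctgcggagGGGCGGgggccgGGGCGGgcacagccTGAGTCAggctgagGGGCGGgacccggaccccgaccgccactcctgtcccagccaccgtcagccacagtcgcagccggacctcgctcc

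Anxa1, the annexin that S100A11 binds, had means of 11.89 ± 0.56 in basal, 12.49 ± 0.19 in club and 12.19 ± 0.36 in ciliated cells (SD, n = 2), and none of its contrasts passed (limma adjusted p = 0.624, 0.302 and 0.592). S100a6, or calcyclin, binds annexin A11 and the ubiquitin-ligase adaptor CacyBP. Its level was 11.75 and 11.999 in basal, 11.90 and 11.02 in ciliated, and 11.38 and 11.35 in club cells. The ciliated arrays spanned almost the whole range and overlapped both other types. No contrast of S100a6 passed (limma adjusted p = 0.420, 0.349 and 0.878), and the 95% interval of ciliated minus basal, -1.07 to 0.24, still holds differences of up to about 1 unit. Without ciliated replicate 2 that difference was 0.02 instead of -0.41.

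Anxa11, the annexin that S100A6 binds, was at 11.75 on both ciliated arrays, at 10.57 ± 0.46 in basal and at 10.52 ± 0.30 in club cells. It was higher in ciliated cells than in basal cells by 1.18 ± 0.25 (limma adjusted p = 0.0159) and than in club cells by 1.23 ± 0.25 (limma adjusted p = 0.0151). Cacybp had means of 10.12 in basal, 10.07 in club and 10.30 in ciliated cells, and none of its contrasts passed (lowest limma adjusted p = 0.527). Among the 12 annexins as a list, 2 were higher and 1 lower in ciliated than in basal cells, 2 higher and 1 lower in club than in basal cells, and 3 higher and 3 lower in ciliated than in club cells. These are 25, 25 and 50 percent, beside 17.6, 8.02 and 15.4 percent of all genes. Anxa3, at 12.05 in club, 10.96 in basal and 10.32 in ciliated cells, and Anxa8, at 9.72 in club, 11.41 in basal and 11.40 in ciliated cells, were among those called. Anxa10 was at 7.03 in club cells and at 5.41 and 5.49 in basal and ciliated cells.

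**Figure D2:**
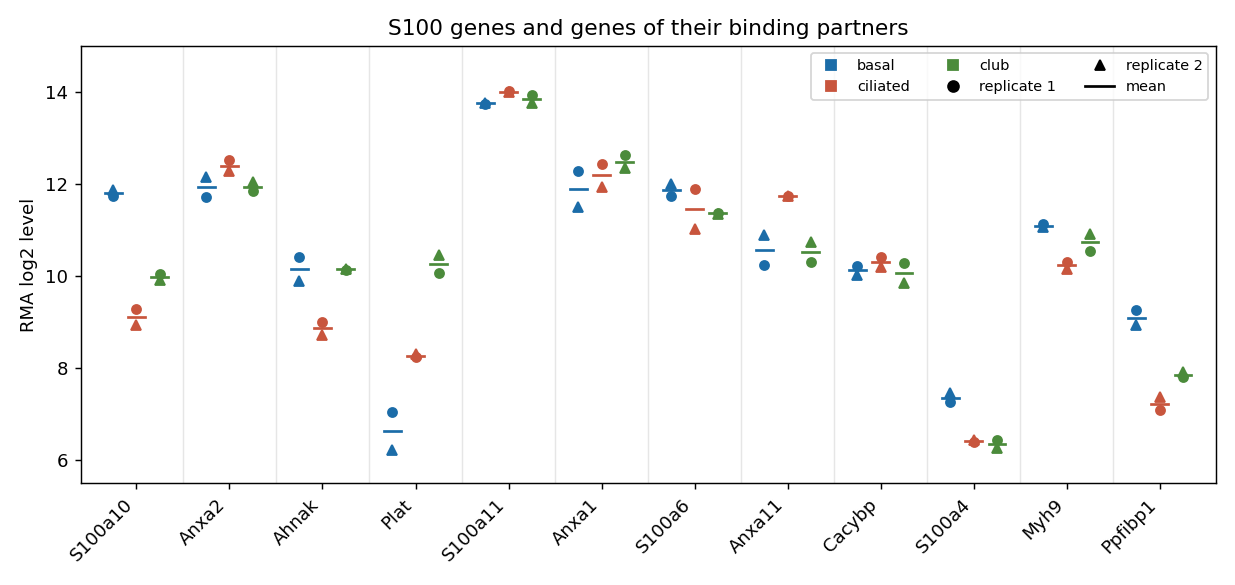
RMA log2 level (y axis) of 4 S100 genes and 8 genes of their binding partners (x axis), with 1 symbol per array and a line at the mean of each cell type. S100a10 and Ahnak are both lowest in ciliated cells, the 6 arrays of Cacybp lie between 9.85 and 10.41, and Anxa11 is highest in ciliated cells at 11.75.

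S100a14 and S100a16 moved alike. S100a14 was at 8.46 and 9.35 in basal, 8.07 and 7.62 in club, and 6.33 and 6.14 in ciliated cells. No arrays of different cell types overlapped. Ciliated cells were lower than basal cells by a factor of 6.37 (-2.67 ± 0.30, limma adjusted p = 0.000779) and lower than club cells by a factor of 3.05 (-1.61 ± 0.30, limma adjusted p = 0.0107). Club minus basal, at -1.06 ± 0.30, missed the threshold (limma adjusted p = 0.0844). Leaving out ciliated replicate 1 (adjusted p = 0.0673), ciliated replicate 2 (0.099) or club replicate 1 (0.0694) ended the ciliated minus club call of S100a14, and its club minus basal difference was -1.51 without basal replicate 1 (adjusted p = 0.00903) and -0.62 without basal replicate 2 (adjusted p = 0.208).

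S100a16 was at 10.56 and 11.77 in basal, 10.10 and 10.02 in club, and 9.15 and 8.74 in ciliated cells. Again no arrays of different types overlapped, but the basal arrays lay 1.20 log2 units apart. Ciliated cells were lower than basal cells by a factor of 4.67 (-2.22 ± 0.36, limma adjusted p = 0.00489), a call that ended without ciliated replicate 2 (adjusted p = 0.0604). Club minus basal was -1.11 ± 0.36 (limma adjusted p = 0.128) with both basal arrays, -1.71 without basal replicate 1 (adjusted p = 0.00419) and -0.50 without basal replicate 2 (adjusted p = 0.275). Ciliated minus club was -1.12 ± 0.36 (limma adjusted p = 0.0878) and was called when the fit left out both basal arrays (-1.12 ± 0.18, adjusted p = 0.00493). Over the 6 arrays S100a14 and S100a16 had a Pearson correlation of 0.978, a description of arrays that share the cell types and their normalization. High values were not limited to this pair. S100a10 correlated with S100a14 at 0.928 and with S100a16 at 0.925, and S100a13 at 0.913 and 0.899. In both genes basal replicate 2 was the highest array.

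S100a16 has annotated starts in 2 promoter windows of RefSeq, shown because this gene and its neighbour S100a14 fell together in ciliated cells. They lie at chr3:90537004-90537303 and chr3:90540896-90541195 on the plus strand of GRCm38.p6. Capitals in the upstream window mark 1 match to the RFX half-site GTTGCC, with its first base at -245 from the start. In the downstream window they mark an AP-1 match (TGANTCA) at -192 and a GC box at -30 from the start.
S100a16 upstream promoter: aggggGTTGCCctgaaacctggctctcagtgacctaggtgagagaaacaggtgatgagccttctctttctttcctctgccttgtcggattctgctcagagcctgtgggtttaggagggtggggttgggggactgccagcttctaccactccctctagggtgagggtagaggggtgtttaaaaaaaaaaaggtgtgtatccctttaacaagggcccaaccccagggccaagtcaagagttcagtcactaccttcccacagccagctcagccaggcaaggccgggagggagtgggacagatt
S100a16 downstream promoter: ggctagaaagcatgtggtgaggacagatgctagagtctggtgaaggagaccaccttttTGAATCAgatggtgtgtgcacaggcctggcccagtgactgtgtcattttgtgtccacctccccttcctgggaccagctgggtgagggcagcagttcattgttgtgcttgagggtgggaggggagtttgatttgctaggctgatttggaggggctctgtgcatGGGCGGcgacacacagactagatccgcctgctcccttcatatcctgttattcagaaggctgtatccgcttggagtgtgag

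S100a4, which binds non-muscle myosin and is abundant in motile cells, fibroblasts and leukocytes, was higher in basal cells than in both other types. Its level was 7.26 and 7.46 in basal, 6.39 and 6.45 in ciliated, and 6.44 and 6.26 in club cells. The basal arrays stood apart and the ciliated and club arrays overlapped. Ciliated cells were lower by a factor of 1.92 (-0.94 ± 0.16, limma adjusted p = 0.00617) and club cells by a factor of 2.02 (-1.01 ± 0.16, limma adjusted p = 0.00983). Ciliated minus club was 0.07 with a 95% interval of -0.31 to 0.45, and turned to -0.04 with quantile normalization applied again and to -0.01 with each array centred on its median. The calls ended without ciliated replicate 1 (ciliated minus basal, adjusted p = 0.0532) and without club replicate 2 (club minus basal, adjusted p = 0.076).

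A few markers of other cells were, like S100a4, higher in basal cells, while most were not called. Over 10 fibroblast markers the mean log2 level was 7.18 to 7.22 in the basal arrays, 6.42 to 6.43 in the ciliated and 6.31 to 6.33 in the club arrays. Their median difference was -0.15 in ciliated minus basal and -0.25 in club minus basal. Of these 10, 2 were lower in each of the other types than in basal cells: Dcn, a matrix proteoglycan, at 12.21 ± 0.12 in basal, 7.79 ± 0.27 in club and 7.34 ± 0.98 in ciliated cells, and Fbln1, a matrix fibulin, at 9.33, 6.67 and 7.03 in that order. The collagen genes Col1a1, Col1a2 and Col3a1 and the receptor gene Pdgfra, all defining fibroblast markers, were between 5.79 and 7.21 on every array and passed in no contrast (lowest limma adjusted p = 0.259). Of 10 general leukocyte markers, Laptm5 (7.40, 6.07 and 5.98 in basal, ciliated and club cells) and Cd53 (5.97, 5.06 and 4.70) were lower in both other types, while Ptprc, which marks nearly all leukocytes, was between 5.17 and 5.68. The mean over these 10 was 5.85 to 6.04 in basal, 5.68 to 5.73 in ciliated and 5.49 to 5.503 in club arrays. Of 10 macrophage and dendritic cell markers, 3 were lower and 1 was higher than in basal cells in each contrast. Cd74 (10.23, 7.34 and 7.34) and H2-Aa (8.74, 5.80 and 5.58), of antigen presentation, were lower. Lyz2, a lysozyme, was the higher one, at 11.43 in basal, 13.76 in club and 13.32 in ciliated cells (limma adjusted p = 0.00437 and 0.00471). Called in each contrast with basal cells were 20 percent of the fibroblast, 20 percent of the leukocyte and 40 percent of the macrophage and dendritic markers. Over all genes 17.6 percent were called in ciliated minus basal and 8.02 percent in club minus basal. The part of such cells in the S100a4 difference was not tested.

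Myh9, the non-muscle myosin heavy chain that S100A4 binds, was at 11.10 ± 0.04 in basal, 10.73 ± 0.26 in club and 10.23 ± 0.12 in ciliated cells, lower in ciliated than in basal cells (-0.86 ± 0.18, limma adjusted p = 0.0141). Ppfibp1, or liprin beta 1, another S100A4 ligand, was at 9.10 in basal, 7.86 in club and 7.22 in ciliated cells. Both differences from basal passed (limma adjusted p = 0.00778 for club and 0.000384 for ciliated cells). Of the 29 binding partners and targets other than annexins, 4 were higher and 5 lower in ciliated than in basal cells, 2 and 2 in club than in basal cells, and 3 and 3 in ciliated than in club cells. The called shares were 31.0, 13.8 and 20.7 percent, beside 17.6, 8.02 and 15.4 percent of all genes. Pla2g4a, a phospholipase that S100A10 can inhibit, was higher in ciliated cells, at 10.17 against 8.33 in basal and 8.58 in club cells. The median differences of these 29 genes were 0.09, -0.06 and 0.19.

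The promoter of S100a4 is shown as that of a basal-high member with a TATA box. The window is chr3:90603520-90603819 on the plus strand of GRCm38.p6, and capitals mark TATAAA at -31 from the start.
S100a4 promoter: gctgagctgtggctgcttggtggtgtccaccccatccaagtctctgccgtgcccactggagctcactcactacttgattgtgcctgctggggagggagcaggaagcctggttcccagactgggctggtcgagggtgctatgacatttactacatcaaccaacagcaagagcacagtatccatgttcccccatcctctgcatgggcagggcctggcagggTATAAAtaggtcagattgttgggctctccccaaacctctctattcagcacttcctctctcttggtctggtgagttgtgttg

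S100a1, known from heart and skeletal muscle, where it binds the ryanodine receptor and raises calcium cycling, was the 1 member called higher in ciliated than in basal cells. It was at 11.68 and 12.11 in basal, 12.68 and 12.45 in club, and 13.07 and 12.92 in ciliated cells. No arrays of different types overlapped. Ciliated cells were higher than basal cells by a factor of 2.14 (1.10 ± 0.20, limma adjusted p = 0.00761). Club cells stood between: club minus basal was 0.67 ± 0.20 (limma adjusted p = 0.0934) and ciliated minus club 0.43 ± 0.20 (limma adjusted p = 0.221), so neither step passed with all arrays. Without basal replicate 2 club minus basal was called (0.89, adjusted p = 0.0425). Leaving out ciliated replicate 1 (adjusted p = 0.0681) or 2 (0.0505) ended the call between ciliated and basal cells, and so did quantile normalization applied again (0.72 ± 0.24, adjusted p = 0.0863).

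S100a13, which helps release fibroblast growth factor 1 and interleukin 1 alpha by a route outside the secretory pathway, was nearly level. It was at 8.21 and 8.33 in basal, 8.01 and 7.78 in ciliated, and 8.21 and 8.01 in club cells. The club arrays overlapped both other types. No contrast passed, and the 95% interval of ciliated minus basal was -0.77 to 0.02. Fgf1, one of its cargoes, had a mean of 9.64 in basal cells, 9.21 in ciliated cells and 9.58 in club cells. Il1a, the other, had means of 4.76, 4.51 and 4.30 in that order, and neither gene passed in any contrast.

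S100a1 and S100a13 lie next to each other and are read in opposite directions from annotated starts 105 bases apart. Their promoter windows share 204 bases. The stretch is shown because the pair, read out from 1 short interval, gave a called difference for S100a1 and none for S100a13. The window is that of S100a13, chr3:90514185-90514484 on the plus strand of GRCm38.p6. Capitals mark the 106 bases from the start of S100a1, which reads to the left, to the start of S100a13, which reads to the right.
S100a1 and S100a13 shared promoter: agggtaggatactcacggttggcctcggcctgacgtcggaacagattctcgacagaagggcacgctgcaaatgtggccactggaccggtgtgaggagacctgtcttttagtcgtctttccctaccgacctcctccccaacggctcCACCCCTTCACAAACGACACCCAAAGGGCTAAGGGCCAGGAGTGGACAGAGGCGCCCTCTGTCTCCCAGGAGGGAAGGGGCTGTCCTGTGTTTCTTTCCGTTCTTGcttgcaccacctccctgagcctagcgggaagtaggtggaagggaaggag
The difference of the differences between S100a1 and S100a13 was not tested.

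No motif searched was found in that window. The search covered the TATA box TATAAA, the CCAAT box, the GC box GGGCGG, the AP-1 motif TGANTCA, the forkhead motif TGTTTAC, the RFX half-site GTTGCC, the C/EBP motif TTGCNNAA and the p53 family half-site, on both strands, in the 9 RefSeq windows of 8 members. TATAAA was found in 3 of the 9 windows, those of S100a4, S100a8 and S100a9, and in 13.6 percent of 32851 windows of all genes. Its first base lay at -31 in S100a4 and -30 in S100a8, but in S100a9 at 1, the annotated start itself. GGGCGG was in 3 of 9 and 35.7 percent, TGANTCA in 2 of 9 and 7.81 percent, and GTTGCC in 3 of 9 and 12.5 percent. The forkhead letters were in none of the 9 and in 3.65 percent of all windows. CCAAT, in 37.4 percent of all windows, TTGCNNAA, in 10.8 percent, and the p53 family half-site, in 8.36 percent, were each in 1 of 9. A match to letters is a description and not a binding site.

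S100a8 and S100a9, the calprotectin subunits, were dim on all 6 arrays. S100a8 was at 5.07 and 5.51 in basal, 5.33 and 5.54 in ciliated, and 5.64 and 5.58 in club cells. S100a9 was at 5.72 and 5.84 in basal, 6.07 and 5.88 in ciliated, and 5.70 and 5.79 in club cells. These values lie around the lower quartile of the arrays, 5.55 to 5.69, and neither gene passed in any contrast (limma adjusted p at least 0.392 for S100a8 and 0.419 for S100a9). The 95% intervals for club minus basal were -0.13 to 0.77 for S100a8 and -0.40 to 0.33 for S100a9. On such dim values a fold can be understated.

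Neutrophils carry both genes in bulk. Of 15 neutrophil markers none differed between ciliated and basal cells by limma (3 had an unadjusted p under 0.05), none between ciliated and club cells (3 at an unadjusted p under 0.05), and 1 was higher in club than in basal cells. That gene, Ltf, encodes the iron-binding lactoferrin that secretory epithelium makes too, at 13.15 ± 0.28 in club and 10.22 ± 1.0 in basal cells. The neutrophil surface gene Ly6g was between 4.71 and 5.48, the granule gene Ngp between 4.26 and 4.83, and the growth factor receptor gene Csf3r between 5.12 and 5.67. The mean over the 15 markers was 5.45 to 5.65 in basal, 5.69 to 5.76 in ciliated and 5.69 to 5.74 in club arrays. In club minus basal 6.67 percent of the 15 were called, beside 8.02 percent of all genes.

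Other defence genes, some of which rise together with S100a8 and S100a9 in inflamed epithelia, did differ. Of 15 measured, 9 were higher and 2 lower in club than in basal cells, and 4 were higher and 2 lower in ciliated than in basal cells, with list medians of 1.58 and 0.27. The called shares were 73.3 and 40 percent, beside 8.02 and 17.6 percent of all genes. In ciliated minus club 6 were lower and none was higher, with a list median of -0.50. That is 40 percent, beside 15.4 percent of all genes. Lcn2, which starves bacteria of iron, rose from 6.96 ± 0.33 in basal to 8.99 ± 0.74 in ciliated and 11.43 ± 0.57 in club cells (club minus basal 4.47 ± 0.40, limma adjusted p = 0.000805). Lyz1, a lysozyme, was at 7.87, 9.67 and 11.44 in the same order. The chemokine gene Cxcl2 was at 9.10 ± 0.22 in club, 6.79 ± 0.41 in basal and 5.58 ± 0.75 in ciliated cells. Defb1, a beta-defensin, had the opposite pattern, at 11.03 in basal, 5.81 in club and 5.64 in ciliated cells.

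**Figure D3:**
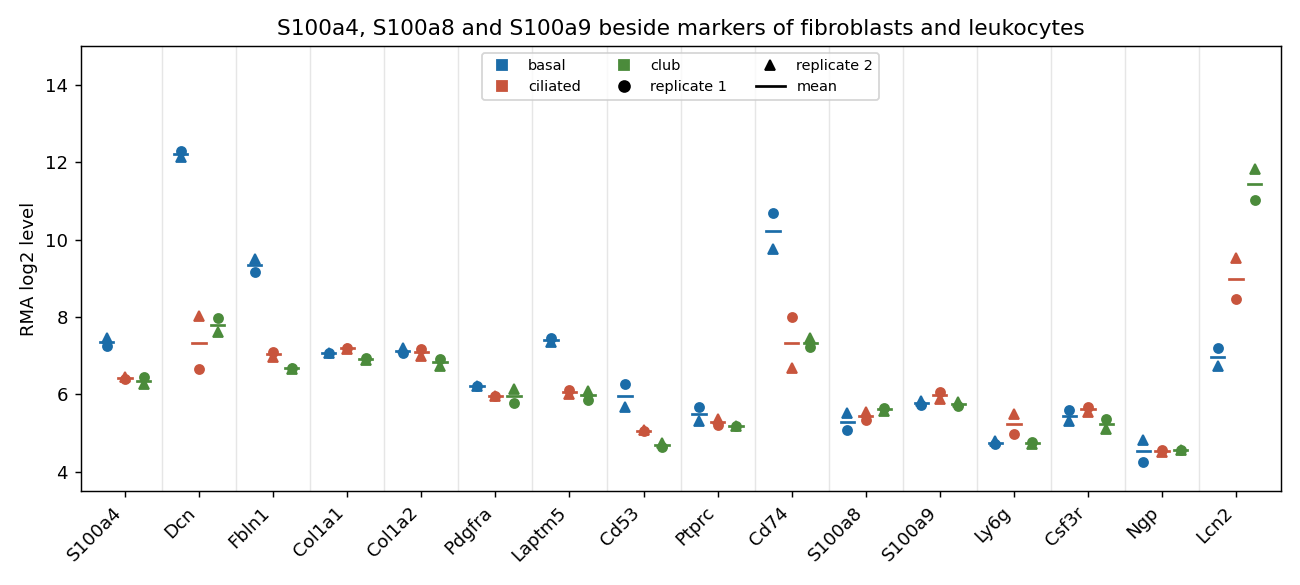
RMA log2 level (y axis) of S100a4, S100a8 and S100a9 beside markers of fibroblasts and leukocytes and beside Lcn2 (x axis), with 1 symbol per array and a line at the mean of each cell type. Dcn, Fbln1, Laptm5, Cd53 and Cd74 are highest in the basal arrays with S100a4, while Col1a1, Ptprc, Ly6g and Ngp stay low in all arrays and Lcn2 reaches 11.43 in club cells.

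Receptors through which released S100 proteins act were measured as well. Of 15, 3 were higher and 1 lower in club than in basal cells, 1 was higher and 2 lower in ciliated than in basal cells, and 3 were lower in ciliated than in club cells. The called shares were 26.7, 20 and 20 percent, beside 8.02, 17.6 and 15.4 percent of all genes. Cd36 is a scavenger receptor for fatty acids that also binds S100A8 with S100A9. It was at 9.20 ± 0.02 in basal, 12.65 ± 0.11 in club and 12.28 ± 0.07 in ciliated cells. Against basal cells the limma adjusted p was 0.000137 for club and 1.33e-05 for ciliated cells. Tlr4, the lipopolysaccharide receptor that S100A8 can engage, was at 8.51 ± 0.20 in club, 7.62 ± 0.25 in basal and 7.37 ± 0.12 in ciliated cells, and was higher in club cells than in both (limma adjusted p = 0.0332 and 0.00649). Its co-receptor gene Cd14 was lower in ciliated cells, at 8.85, than in basal (10.38) and club cells (10.67). Ager, the receptor for advanced glycation end products, lay between 6.82 and 7.39, with no contrast called. Egfr was at 10.15 in basal and 8.51 and 8.55 in ciliated and club cells, and Erbb4 at 7.74 in club and 6.35 and 5.98 in basal and ciliated cells.

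**Figure D4:**
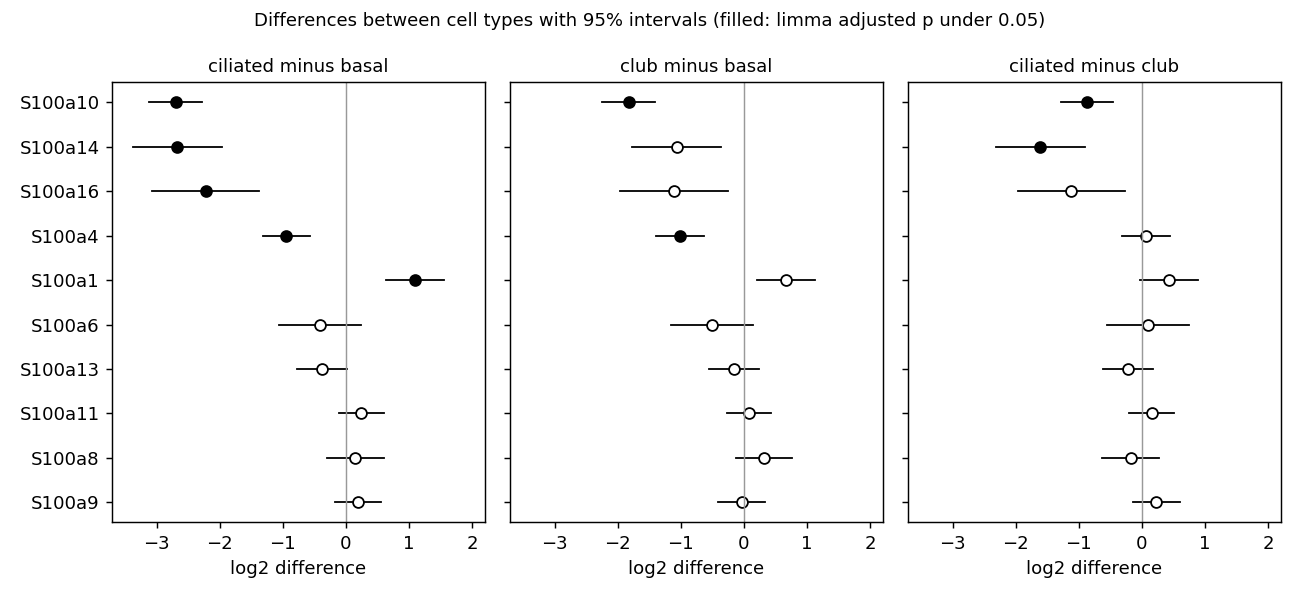
Log2 difference (x axis) of each of the 10 S100 genes (y axis) in the 3 contrasts, with the 95% interval of the limma fit. Filled points passed at an adjusted p under 0.05: 5 genes between ciliated and basal cells, 2 between club and basal, and 2 between ciliated and club.

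Of the 7 other S100 genes of the table, 1 was lower in ciliated than in basal cells, 1 was lower in club than in basal cells, and none passed between ciliated and club cells by limma (0 at an unadjusted p under 0.05). The called shares were 14.3, 14.3 and 0 percent, beside 17.6, 8.02 and 15.4 percent of all genes. S100g, or calbindin-D9k, which ferries calcium in absorptive epithelia, was at 7.23 and 8.44 in basal, 6.52 and 6.58 in ciliated, and 6.93 and 6.75 in club cells. It was lower in ciliated than in basal cells (-1.28 ± 0.35, limma adjusted p = 0.0446), with basal arrays 1.21 log2 units apart. S100a7a, the mouse relative of psoriasin, was at 6.88 and 6.95 in basal, 6.64 and 6.57 in ciliated, and 6.34 and 6.26 in club cells, lower in club than in basal cells (-0.62 ± 0.15, limma adjusted p = 0.0488). S100a2, S100a3, S100a5, S100b and S100z lay between 4.91 and 7.20 on all arrays and passed in no contrast.

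All 10 members lie on chromosome 3, in 2 groups. In the RefSeq order S100a1, S100a13, S100a14, S100a16, S100a3, S100a2, S100a4, S100a5, S100a6, S100a7a, S100a8 and S100a9 follow each other with no other protein-coding gene between them. S100a11 and S100a10 follow after 56 further coding genes and are next to each other. The annotated spans of S100a3 and S100a2 overlap. Some neighbours had like values and others did not. In ciliated minus basal S100a14 and S100a16 were at -2.67 and -2.22, and S100a8 and S100a9 at 0.15 and 0.20. S100a10 was at -2.70 where its neighbour S100a11 was at 0.24, and S100a13, on the other side of S100a14, was at -0.37.

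**Figure D5:**
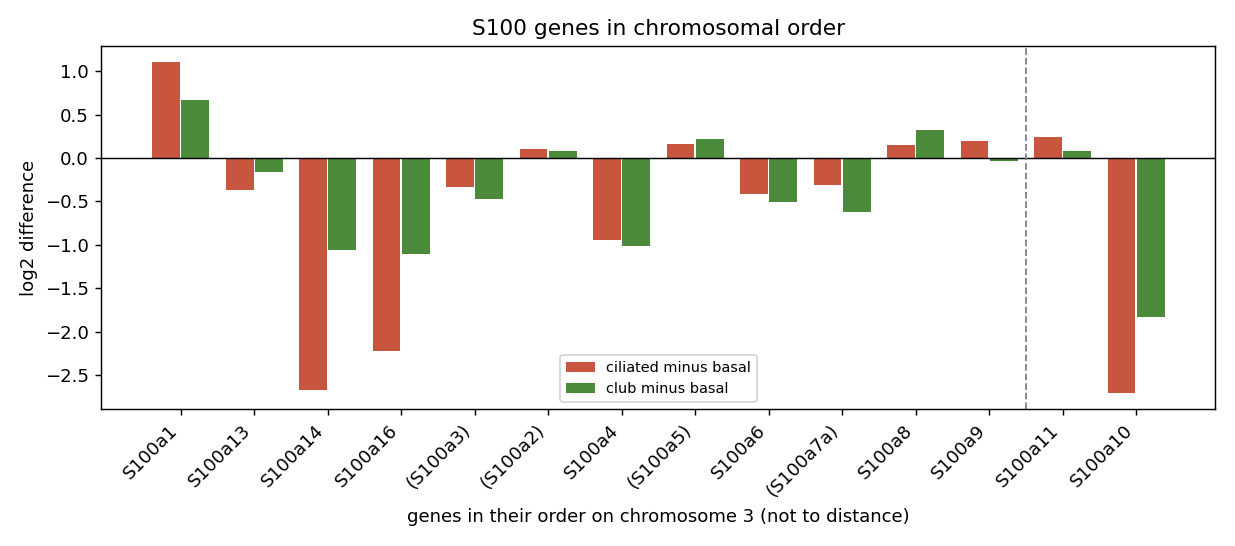
Log2 difference (y axis) of ciliated minus basal and club minus basal for the 14 S100 genes of chromosome 3, drawn in chromosomal order and not to distance, with genes outside the 10 members in brackets and a dashed line where 56 other coding genes lie between. S100a14 and S100a16, at -2.67 and -2.22 in ciliated minus basal, are next to each other, and S100a10, at -2.70, is next to S100a11, at 0.24.

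Genes whose levels ran most like a member over the 6 arrays were found among 6138 others with a range of at least 1 log2 unit. With arrays of only 3 cell types, high values are common and carry no test. For S100a10 they were Stk26 (Pearson r = 0.998), Eda (0.998) and Nbl1 (0.997). S100a14 was nearest to Vasp (0.997), Plk1 (0.993) and Tcf19 (0.992), and S100a16 to Galt (0.999), Npm3-ps1 (0.995) and Lad1 (0.994). Fstl1 (0.998), Phyhip (0.996) and Prr5l (0.995) were nearest to S100a4. S100a1 was nearest to Gpx3 (0.985), Epsti1 (0.983) and Gchfr (0.981), all highest in ciliated cells.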

How the data were processed

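Expression was measured on 6 microarrays, 2 for each sorted cell type. Per the submitters' processing notes the arrays were processed with RMA, which includes background correction, quantile normalization and a probe summary on a log2 scale. No version, platform or genome build is stated in those notes. The deposited values used for every test are RMA log2 values, 1 per gene symbol and array, called aggregate expression per the file headers. The enrichment score that was deposited beside them for each cell type was not used. Another, shorter table without any S100 gene was not used, and its 19 value columns were mapped to no sample. The values of S100a11 were found in the deposited log2 matrix of 35556 probe sets within 1e-06 log2 units. Which probe sets gave the values of the other members is not shown. Nothing was normalized again and no filter on dim genes was applied.

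With limma 3.58.1 in R 4.3.3, the mean of each cell type was estimated from the 6 arrays for 20315 named genes, and variances were moderated by eBayes (prior SD 0.1877 on 4.297 degrees of freedom). The line without a gene symbol was left out. A gene was called where its p, adjusted by Benjamini and Hochberg across the contrast's genes, was under 0.05. The fit was tested on simulated data. The members and all gene lists were chosen with earlier results of these data known. From each list of annexins, other partners, receptors, defence genes and chromosome 3 neighbours, the rule names the 4 genes that differ most in any contrast; other partner, receptor and marker genes were picked after their values were seen. A gene that the rule names is not reported here. The genes most like a member are the 3 with the highest Pearson correlation over the 6 arrays among genes with a range of at least 1 log2 unit, predicted gene models passed over. The alternatives were other between-array normalizations, a dim-gene filter, other variance priors, fits on 4 arrays, a replicate block and leaving out each array. Sequences and gene order come from RefSeq tables of mouse assembly GRCm38.p6.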

Additional observations from a re-analysis of the deposited data

How the results depend on the processing

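Of 417 recomputed member differences, 399 kept their side of the threshold and, where called, their direction. A further 12 lost a call, 6 gained one and no called difference reversed. Most member differences were not called with all arrays, so most of the 399 only stayed uncalled. Some settings repeat each other: leaving out either array of the third cell type gave the values of the fit on 4 arrays. Leaving out 1 array at a time, the number of S100 genes called ranged from 3 to 5 between ciliated and basal cells (5 with all arrays), from 1 to 4 between club and basal (2) and from 0 to 3 between ciliated and club (2). A fit without a replicate leaves fewer arrays, and the lone array is then assumed to vary like the other groups. Calls over all genes fell from 3570 to 2196 and 1907 without ciliated replicates 1 and 2 between ciliated and basal cells. Between club and basal cells they went from 1629 to 1050 with only 4 arrays or without either ciliated array, to 783 and 820 without club replicates 1 and 2, and to 2534 without basal replicate 1. In ciliated minus club they fell from 3126 to 1732, 1587 and 1879 without ciliated replicate 1, ciliated replicate 2 and club replicate 1. The replicate block changed no call of a member, with 5, 2 and 2 members called. Over all genes it raised the calls from 3570 to 4104, from 1629 to 2024 and from 3126 to 3739 in the same order. The labels do not say whether same-numbered arrays share more than a number. Their deviations correlated at 0.0521 (basal and ciliated), 0.265 (basal and club) and 0.26 (ciliated and club). A shared replicate effect was not tested beyond this block. S100a8 and S100a9 fell below the dim-gene filter (mean log2 under 6) and have no value there.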

Other observations

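The listed chromosome 3 neighbours of the S100 family were mostly not called. They are genes of the epidermal differentiation complex and a few others such as Chtop. Of 17 measured, 1 was lower in ciliated than in basal cells and none was higher by limma (3 had an unadjusted p under 0.05), and none passed in club minus basal or ciliated minus club (3 each at an unadjusted p under 0.05). In ciliated minus basal that is 5.88 percent, beside 17.6 percent of all genes. The 1 called gene was Lor, loricrin of the cornified envelope, with means of 6.22 ± 0.02 in basal, 5.60 ± 0.05 in club and 5.41 ± 0.17 in ciliated cells (limma adjusted p = 0.0112). Sprr1a, a small proline-rich protein of stressed squamous epithelium, varied between arrays of a type, with 10.83 and 10.70 in basal, 8.61 and 9.84 in ciliated, and 8.996 and 10.74 in club arrays, and no contrast was called although ciliated minus basal was -1.54 ± 0.58 (lowest limma adjusted p = 0.128). Rptn, a fused S100-type gene, had means of 4.81 in basal, 5.47 in club and 4.88 in ciliated cells, with no contrast called. Chtop, an RNA export factor, was not called either, with means of 8.79 in basal, 9.07 in club and 8.47 in ciliated cells.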
